A study of Mus musculus with 2 samples.

Results

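The nuclear genes of the mitochondrial respiratory chain and ATP synthase were examined in open chromatin maps of the embryonic mouse heart. Members were the autosomal protein-coding genes of GENCODE M21 (genome build mm10) whose symbols begin with *Nduf*, *Uqcr*, *Sdh* followed by a letter from a to d, *Atp5*, or *Cox* followed by a digit from 4 to 8, which gave 91 of 20807 autosomal protein-coding genes. Of these, 88 members and 19476 genes in all were analysed. *Ndufa6*, *Atp5g1* and *Ndufb3* were not analysed here, because the serial numbers that the peak caller gave to the peaks skip at their starts in at least 1 list. The experiment was ATAC-seq, in which the Tn5 transposase cuts and tags DNA that is not covered by nucleosomes, on hearts of wildtype FVB embryos at E11.5 (49 to 51 somites). It comprised 2 biological replicates, each made from a pair of whole hearts that had been microdissected, so that each library mixed muscle, endothelial, epicardial and blood cells, and no cell type was sorted. There was no second group and no treatment, so that no test between conditions was possible and each value is given for replicate 1 and then replicate 2.

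The respiratory chain passes electrons from NADH and succinate to oxygen and pumps protons across the inner mitochondrial membrane, and ATP synthase uses the return of those protons to make ATP. Complex I (NADH dehydrogenase, the *Nduf* genes) and complex II (succinate dehydrogenase, *Sdh*) take up the electrons, complex III (*Uqcr*) passes them to cytochrome c, complex IV (cytochrome c oxidase, *Cox*) gives them to oxygen, and complex V is ATP synthase (*Atp5*). A few core subunits are encoded by the mitochondrial genome and all others by the nucleus. Several complex IV subunits exist as isoforms: *Cox6a2*, *Cox7a1* and *Cox8b* encode the forms of heart and skeletal muscle, which in the maturing heart replace the forms that most tissues use, encoded by *Cox6a1*, *Cox7a2* and *Cox8a*.

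Promoter sequences of both kinds of isoform are shown first, because *Cox8b* and *Cox7a1*, both muscle isoforms, had the fewest CpG dinucleotides among the 67 members with an entry in the promoter table, which *Cox6a2* lacks. Each line holds the 200 bases before the gene's start, 5′ to 3′ on the gene's strand, from the RefSeq promoter table of build GRCm38.p6 and ending before whichever of the RefSeq and GENCODE starts lies further upstream. Capitals mark matches to the motifs given further on. They mark a GATA motif in both matches of *Cox7a1*, an E-box in *Cox8b*, and overlapping NRF1 matches and an SP motif in *Cox6a1*. In *Atp5e*, the gene of complex V with the highest mean promoter value, they mark an ETS motif between SP motifs. The stretches lie at chr7:30183944-30184143 (plus strand) for *Cox7a1*, chr7:140900447-140900646 (minus strand) for *Cox8b*, chr5:115348982-115349181 (minus) for *Cox6a1*, chr9:79759879-79760078 (minus) for *Cox7a2*, chr19:7217617-7217816 (minus) for *Cox8a* and chr2:174464106-174464305 (minus) for *Atp5e*.
*Cox7a1*: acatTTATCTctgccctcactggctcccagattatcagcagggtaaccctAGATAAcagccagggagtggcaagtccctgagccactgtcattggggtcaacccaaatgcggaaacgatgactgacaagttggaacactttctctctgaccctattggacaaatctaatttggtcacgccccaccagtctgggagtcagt
*Cox8b*: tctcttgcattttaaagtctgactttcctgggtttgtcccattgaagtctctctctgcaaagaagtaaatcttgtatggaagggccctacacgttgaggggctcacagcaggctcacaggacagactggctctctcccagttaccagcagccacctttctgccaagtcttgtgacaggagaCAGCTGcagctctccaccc
*Cox6a1*: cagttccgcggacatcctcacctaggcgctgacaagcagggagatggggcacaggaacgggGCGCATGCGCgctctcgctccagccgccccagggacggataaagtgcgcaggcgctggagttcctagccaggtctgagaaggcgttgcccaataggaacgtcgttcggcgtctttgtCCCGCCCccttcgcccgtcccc
*Cox7a2*: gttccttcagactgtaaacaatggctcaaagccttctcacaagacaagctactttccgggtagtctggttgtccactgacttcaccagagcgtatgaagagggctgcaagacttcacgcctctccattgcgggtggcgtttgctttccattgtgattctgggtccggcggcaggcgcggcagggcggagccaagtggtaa
*Cox8a*: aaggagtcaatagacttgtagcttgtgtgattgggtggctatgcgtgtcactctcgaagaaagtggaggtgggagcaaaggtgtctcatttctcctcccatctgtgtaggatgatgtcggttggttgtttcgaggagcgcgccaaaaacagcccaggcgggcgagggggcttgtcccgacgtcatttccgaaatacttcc
*Atp5e*: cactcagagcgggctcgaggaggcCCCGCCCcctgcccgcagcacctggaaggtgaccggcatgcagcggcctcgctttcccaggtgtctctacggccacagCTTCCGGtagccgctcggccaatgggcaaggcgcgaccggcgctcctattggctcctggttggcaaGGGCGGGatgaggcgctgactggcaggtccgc
The stretch of *Cox8b* held 1 CpG dinucleotide and that of *Cox7a1* held 3, whereas *Cox6a1* held 20, *Cox7a2* 10, *Cox8a* 11 and *Atp5e* 18.

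A promoter was counted as accessible where a peak of replicate 1 and a peak of replicate 2 overlapped and the overlap lay within 1 kb of a protein-coding start of the gene, which is called a shared region below. The level given for a promoter is the highest fold enrichment among the peaks in that window. This is the value that the MACS2 peak caller assigns to a peak's summit, the read pileup divided by a single genome-wide background with 1 added to each. It describes 1 position, so that it does not scale with gene length. The lists held 118027 peaks in replicate 1 and 114783 in replicate 2, with medians of 5.7 and 5.03 for fold enrichment. The depth of each library is unknown here, since the lists carry peaks rather than reads, and no counting interval is given. In a whole organ, a promoter open in fewer cells and a promoter less open in every cell cannot be told apart. The tissue label was checked against marker genes: all 10 heart muscle genes had a shared region, where 70.9% of all autosomal protein-coding genes had one, as did all 4 endothelial and all 4 epicardial genes and 3 of 4 blood genes, the last a share near that of all genes. The heart muscle genes ran from *Tbx5*, a cardiac transcription factor (5.43 and 4.78), to *Actc1* (cardiac actin, 25.8 and 22.1), with a median of 15.2. Of 6 genes of cell types outside the heart, *Cdx2* and *Myod1* had one, at mean values of 4.29 and 5.21, the second above the mean of *Tbx5*, 5.10, while *Alb*, *Myog*, *Neurod1* and *Neurog1* had none.

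Nearly all respiratory chain promoters were accessible at E11.5. A shared region was found for 85 of the 88 members, or 96.6%, against 70.9% of all genes. In each replicate alone, 85 members had a peak, against 72.2% of all genes in replicate 1 and 72% in replicate 2. The members without one were *Cox7b2* and *Cox8c*, whose products are complex IV isoforms of the testis, and a second gene entry under the symbol *Atp5o*, whose start lies inside the main *Atp5o* locus. The main *Atp5o* entry, for the oligomycin sensitivity subunit in the stalk of ATP synthase, had values of 20.4 and 21.1.

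The level of the open promoters was somewhat higher for members than for all genes, with a wide overlap. The median of the mean fold enrichment was 27.5 over the 85 members with a shared region, with quartiles of 21.6 and 34.1, and 24.8 over all genes with one, with quartiles of 14.4 and 33.8. With peaks limited to a q-value of at most 1e-10, the medians were closer, at 27.6 and 26.0. Both replicates gave this order, at 26.9 and 27.7 for the members and 24.7 and 24.9 for all genes. Few members were at the lower end: 6 lay below the lower quartile of all genes, 57 between the quartiles and 22 above the upper quartile. The lowest member stood at 5.46 and the highest at 45.1. Genes as a whole ran from 3.15 to 71.6, a range that any part of them must lie within. Median peak lengths were 1412 and 1480 bp for the members and 1436 and 1503.5 bp for all genes. In 54 members (63.5%) the summits of the highest peak lay within 100 bp of a start in both replicates, against 49.8% of all genes with a shared region.

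Replicates gave similar values for the members. The ratio of replicate 1 to replicate 2 ran from 0.742 to 1.22, and 61 of 85 members lay within a ratio of 1.1 in either direction. Replicate 1 was the higher for 43 members and replicate 2 for 42, so that neither library was higher throughout. The typical SD between replicates was 1.57 units of fold enrichment, and the largest difference was 5.45, in *Atp5g2* (31.5 and 37.0). With a ratio and its inverse counted alike, those furthest from 1 were of *Ndufaf1* (12.5 and 16.8), *Ndufb10* (11.1 and 14.8) and *Cox4i2* (4.89 and 6.03). All of them were low in level and higher in replicate 2. In the other direction the highest ratios were those of *Cox6a2* (1.22), *Ndufa4l2* (1.22), *Cox8b* (1.18) and *Cox7a1* (1.17). All 3 muscle isoforms were thus higher in replicate 1.

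**Figure D1:**
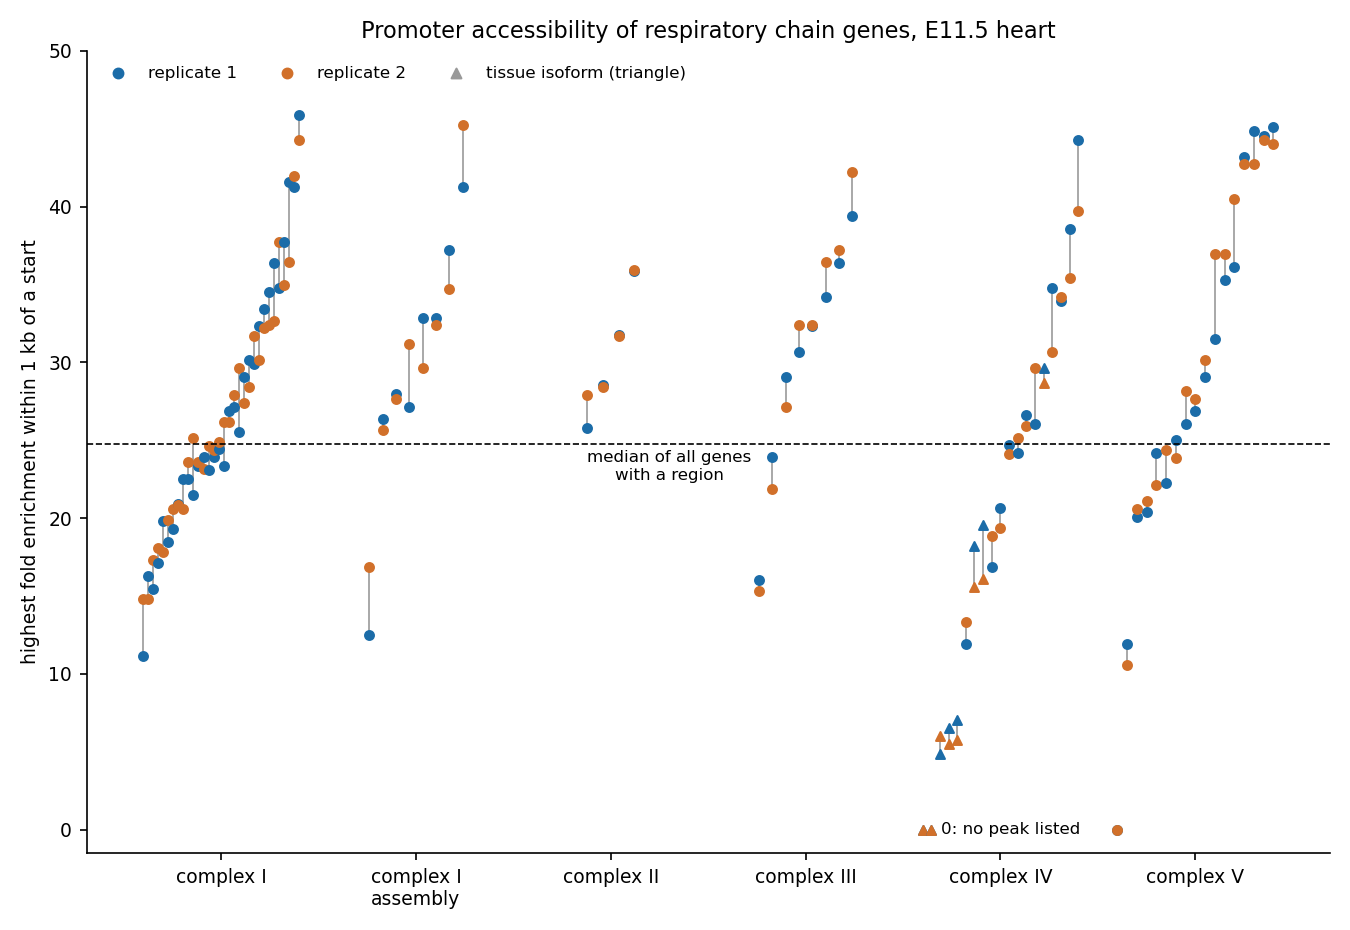
Highest fold enrichment within 1 kb of a start (vertical axis, no unit) for the 88 analysed members, grouped by complex and ordered by their mean, with replicate 1 in blue and replicate 2 in orange and a grey line joining both values of a gene. Triangles mark complex IV isoforms of restricted tissues, the dashed line is the median of all genes with a shared region (24.8), and members at 0 had no listed peak; the 3 triangles nearest above 0 are *Cox4i2*, *Cox8b* and *Cox6a2*.

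All 32 analysed complex I genes had a shared region, where 70.9% of all genes had one, and their median was 24.7. *Ndufb5*, an accessory subunit of the membrane arm, had the highest mean of all members, with values of 45.9 and 44.2. In replicate 2 alone, *Ndufaf8* was higher (45.3). *Ndufb10*, another accessory subunit of the membrane arm, had the lowest mean of complex I, with values of 11.1 and 14.8. The 7 nuclear core subunits, which carry the flavin, iron-sulphur clusters and quinone site, covered much of that range. *Ndufs8*, an iron-sulphur subunit, stood at 41.3 and 42.0. *Ndufv1*, which binds NADH and the flavin, stood at 37.8 and 34.9. *Ndufs7*, whose iron-sulphur cluster lies next to the quinone site, stood at 17.1 and 18.1. The core subunits thus held no common level. The 8 genes named for complex I assembly factors all had a shared region, with a median of 30.2, from *Ndufaf1* to *Ndufaf8* (41.3 and 45.3).

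Complex II, with 4 genes, had the narrowest spread. *Sdha*, the flavoprotein that oxidises succinate, had values of 31.8 and 31.7. *Sdhb*, the iron-sulphur subunit, was the highest at 35.9 in each replicate. The membrane anchors *Sdhc* (28.5 and 28.4) and *Sdhd* (25.8 and 27.9) were lower than both, with no overlap between replicates, and *Sdhc* lay between the other anchor and *Sdha*. All 8 complex III genes had a shared region, where 70.9% of all genes had one, and their median was 32.0. *Uqcrq*, a small subunit that lies by the cytochrome b core, was the highest at 39.4 and 42.2. *Uqcrfs1*, the Rieske iron-sulphur protein, stood near the median of the complex at 32.3 and 32.4. *Uqcr11*, another small subunit, was the lowest at 16.0 and 15.3 and did not overlap with any other gene of the complex.

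In ATP synthase, 16 of 17 analysed genes had a shared region, against 70.9% of all genes, the second *Atp5o* entry being the exception. The median of the 16 was 28.4. Within the catalytic head the subunits differed: *Atp5b*, the catalytic beta subunit, had values of 43.2 and 42.7, whereas *Atp5a1*, the alpha subunit, had 22.3 and 24.4. The central stalk ran from *Atp5d* (delta, 26.1 and 28.2) through *Atp5c1* (gamma, 35.3 and 37.0) to *Atp5e* (epsilon, 45.1 and 44.0). Of the genes that encode the c subunit of the membrane ring, *Atp5g2* stood at 31.5 and 37.0 and *Atp5g3* at 24.2 and 22.1, with no overlap. The lowest gene was *Atp5l*, which encodes subunit g at the dimer interface, at 12.0 and 10.6. *Atp5s* (44.5 and 44.2) and *Atp5j* (coupling factor 6, 44.8 and 42.7) completed the 5 members of highest mean with *Ndufb5*, *Atp5e* and *Ndufaf8*. Of the 85 members with a shared region 16 had several, and most of these, *Atp5b*, *Atp5s*, *Atp5c1* and *Ndufa11* among them, counted 2. In each of these 4 genes a single long peak of replicate 2 overlapped with a tall peak and a neighbouring low peak of replicate 1.

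Complex IV had the widest spread of the complexes and held 4 of the 5 lowest members. A shared region was found for 17 of its 19 genes, here with *Ndufa4* and *Ndufa4l2*, whose products are now placed in complex IV despite their names, and the median was 24.4. Of the 8 isoforms of restricted tissues 6 had a shared region, a share near the 70.9% of all genes, with a median of 11.7. The other 11 genes all had one, with a median of 26.3 and a range from 12.6 to 42.0. Outside these isoforms the lowest was *Cox6c*, a small structural subunit, at 12.0 and 13.3. *Cox5a* (26.6 and 25.9), *Cox5b* (26.1 and 29.7) and *Cox7c* (34.0 and 34.2), structural subunits with a single form each, stood above it.

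All 3 muscle isoform promoters were open in both replicates, where 70.9% of all genes were, and each was lower than its ubiquitous counterpart. With peaks limited to a q-value of at most 1e-10, 2 of the 3 kept a shared region, a share near the 65.8% of all genes at that limit, and *Cox8b* lost its own, as the −log10 q-value of its replicate 2 peak was 9.82. *Cox8b* had values of 6.52 and 5.53, against 44.3 and 39.7 for *Cox8a*, a ratio of 6.79 in replicate 1 and 7.18 in replicate 2. *Cox6a2* had 7.06 and 5.78, against 16.8 and 18.9 for *Cox6a1*, ratios of 2.38 and 3.26. *Cox7a1* had 18.2 and 15.6, against 34.8 and 30.7 for *Cox7a2*, ratios of 1.91 and 1.97. In no pair did the replicates overlap, and the differences of the means (36.0, 11.4 and 15.8) exceeded the largest gap between replicates within each pair (4.56, 2.01 and 4.10). No test was run, since each pair compares single genes with 2 values each. *Cox7a1* stood apart from the other muscle isoforms: its value was near that of *Cox6a1*, a ubiquitous form, and both its replicates exceeded those of *Cox6a2* and *Cox8b*. *Cox8b* and *Cox6a2* differed by less than their replicates did, and they were, with *Cox4i2*, the lowest members with a shared region.

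The other isoform families did not share one order. *Cox4i2*, the form of lung and of low oxygen, had 4.89 and 6.03, and *Cox4i1*, its general counterpart, 24.2 and 25.1. *Ndufa4l2*, which low oxygen induces, had 19.6 and 16.1 and *Ndufa4* 38.6 and 35.4, but the summits of the *Ndufa4l2* peak lay 1880 and 1947 bp upstream of the start, and only its edge reached the window. *Cox6b2* showed the opposite order. Although known as the testis form, it had 29.6 and 28.7, above *Cox6b1* with 20.6 and 19.4, and the ratios of *Cox6b1* to *Cox6b2* were 0.697 and 0.675. *Cox7a2l*, which encodes a relative of the COX7A subunits that joins complexes III and IV, had 24.7 and 24.1, between *Cox7a1* and *Cox7a2*.

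**Figure D2:**
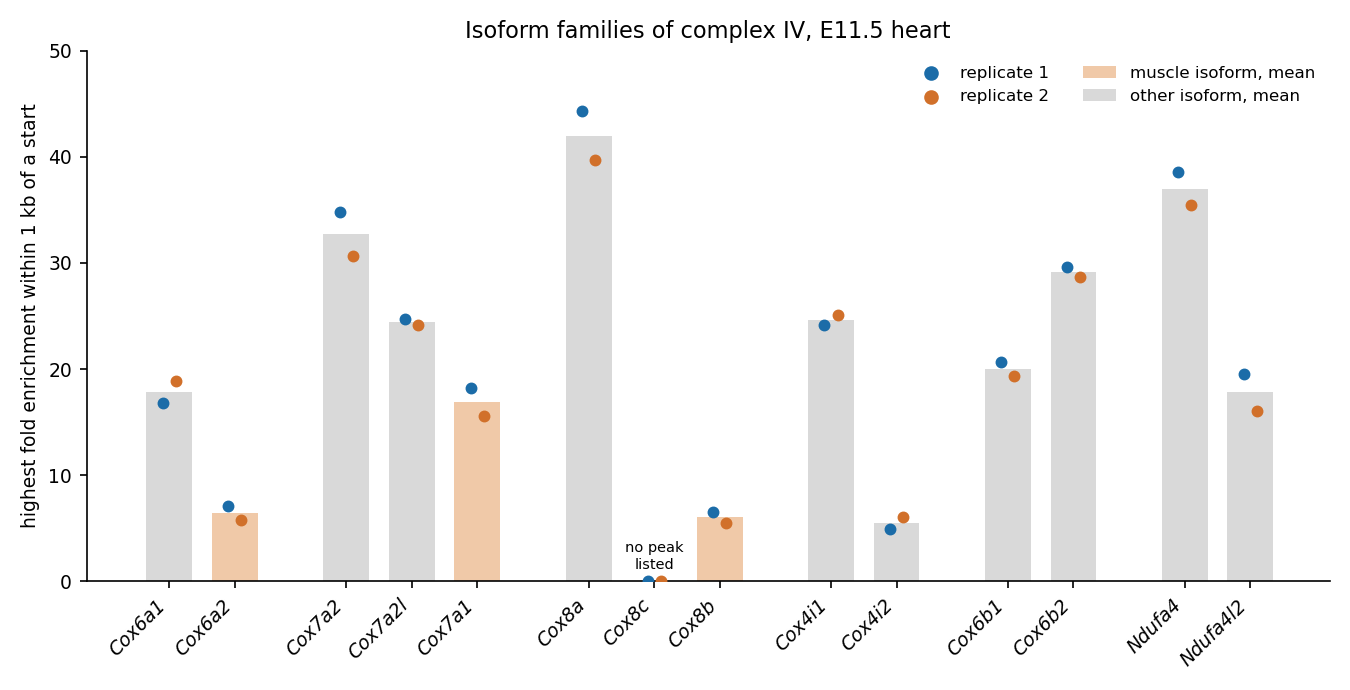
Highest fold enrichment within 1 kb of a start (vertical axis, no unit) for isoform genes of complex IV, with bars at the mean of both replicates, replicate 1 in blue and replicate 2 in orange; muscle isoforms have tan bars. Each tan bar stands below the other open promoters of its family, *Cox6b2* stands above *Cox6b1*, and *Cox8c* had no listed peak.

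Peaks within 10 kb of the 5′-most start were compared for the same genes. At *Cox8b* the promoter peak was the lowest of 3 in each replicate. A peak with its summit 2.90 kb upstream in replicate 1 and 2.94 kb in replicate 2 had 8.42 and 7.04, and one at 8.35 kb upstream in both had 13.6 and 13.3 (chr7:140908483-140909126 in replicate 1), both higher than the promoter in both replicates. At *Cox7a1* the promoter peak was exceeded by one that had 22.5 and 25.1, with its summits 10.9 kb downstream of the start in both replicates and only its near edge, at 9.43 and 9.34 kb, inside the 10 kb. *Cox6a2* had only its promoter peak in replicate 1, and a further peak of 4.53 in replicate 2 that did not overlap with any of replicate 1. *Cox7a2* had its promoter peak alone in both replicates. At *Cox8a* a peak of 3.77 accompanied it in replicate 2, and at *Cox6a1* the promoter peak was the tallest of 4. Counted by summits within 10 kb, *Cox8b* alone among the 3 muscle isoforms and their 3 counterparts had a peak taller than that of its promoter. Which genes such peaks act on was not tested.

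**Figure D3:**
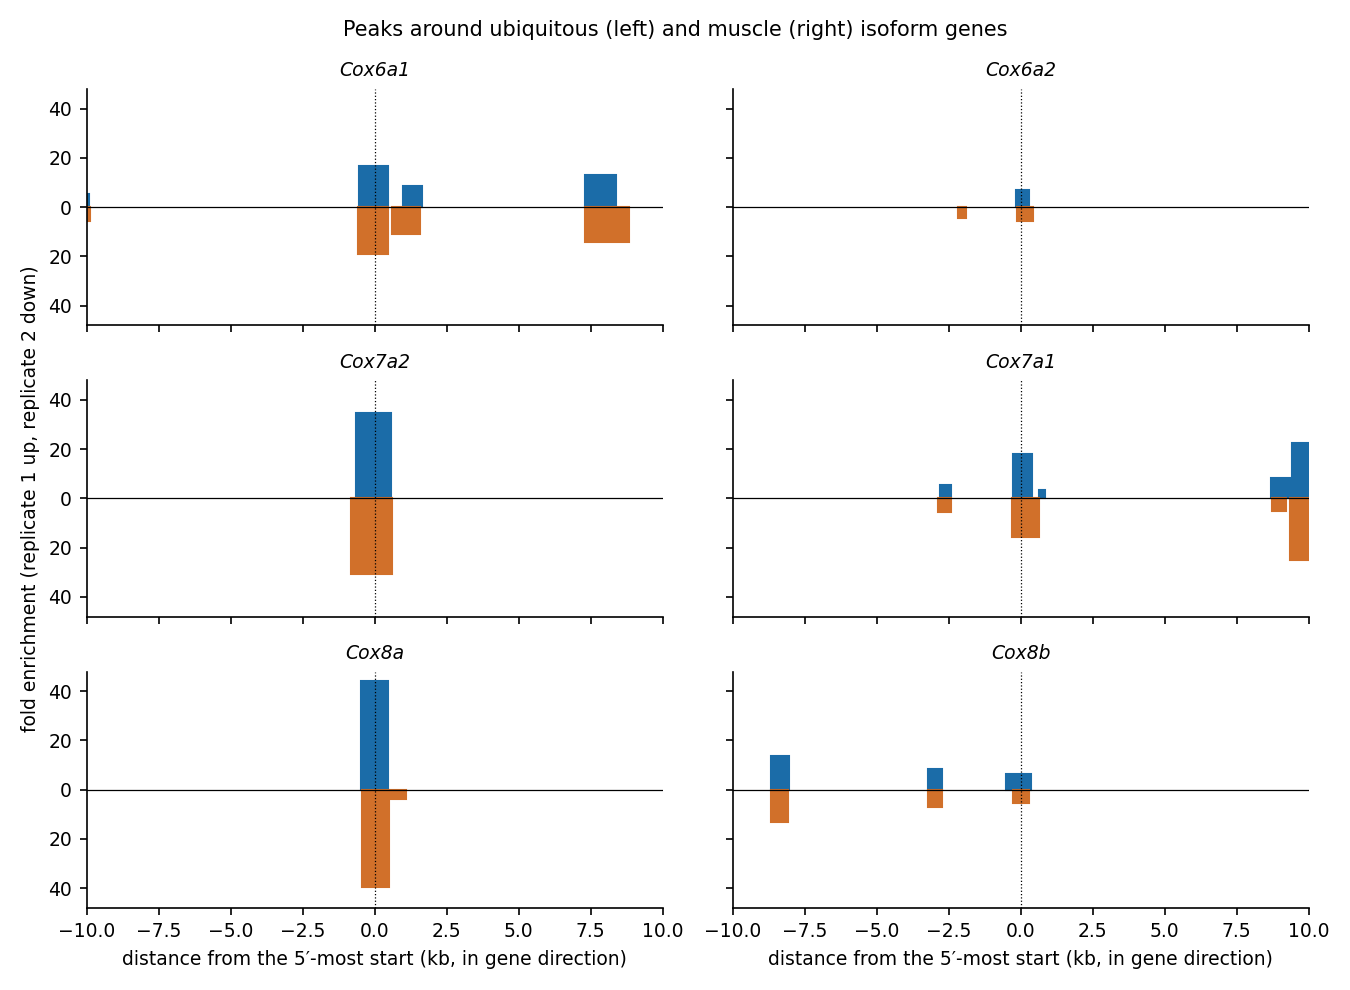
Peaks within 10 kb of the 5′-most start of ubiquitous (left) and muscle (right) isoform genes: the horizontal axis is the distance from the start in kb along the gene, each box spans a peak, and its height is the fold enrichment, upward in blue for replicate 1 and downward in orange for replicate 2. The promoter peak is the tallest at *Cox6a1*, *Cox7a2*, *Cox8a* and *Cox6a2*, whereas at *Cox8b* a distal peak is taller, as is one at *Cox7a1* that reaches in from the right edge with its summit beyond 10 kb.

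The position of the summit was close to the start for most members. The median summit lay 8 bp downstream of the nearest start in replicate 1 and 11 bp downstream in replicate 2, and the medians of all genes with a shared region were -10 and -7 bp, where a minus sign means upstream. At *Atp5j* the summits lay 541 and 543 bp downstream of the nearest start. At *Atp5f1*, for subunit b of the ATP synthase stalk, they lay 718 and 733 bp downstream, beside the start of *Wdr77* on the opposite strand, which is 730 bp from that of *Atp5f1*. At *Ndufa13*, a complex I accessory subunit, the summits of the replicates lay on opposite sides of the start, at -732 and 838 bp, although the values were close (26.9 and 26.1).

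**Figure D4:**
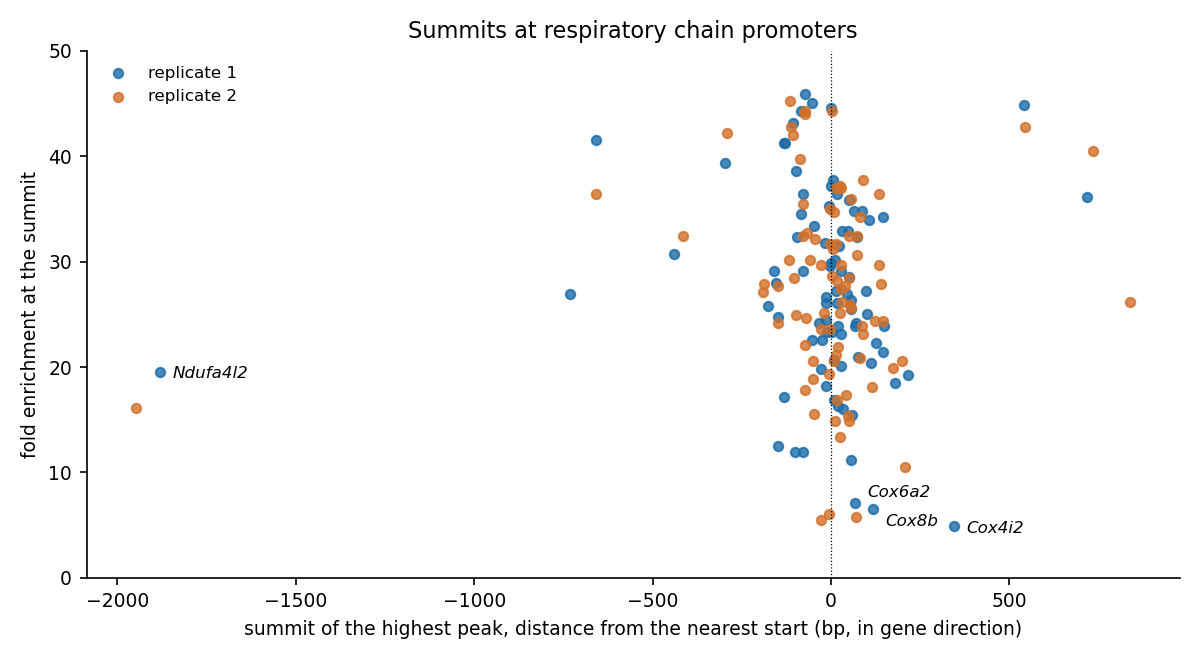
Fold enrichment of the highest peak (vertical axis, no unit) against the distance of its summit from the nearest start in bp along the gene (horizontal axis, negative upstream) for the 85 members with a shared region, replicate 1 in blue and replicate 2 in orange. Most points lie near 0, and *Ndufa4l2* stands apart at -1880 and -1947 bp.

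A coding start on the opposite strand within 1 kb was found for 32 of 88 members (36.4%), against 11.9% of all genes. Among those with a shared region, 32 of 85 members and 2268 of 13818 genes in all had such a start. For the members, the distance ran from 3 to 730 bp with a median of 100. Partners with a role in mitochondria included *Mrpl47*, 20 bp from *Ndufb5*, and *Mrpl36*, 29 bp from *Ndufs6*, both genes of mitochondrial ribosomal proteins, and *Timm8b*, a chaperone for protein import, 98 bp from *Sdhd*. *Atp5j* lay 379 bp from *Gabpa*, which encodes an ETS factor known to regulate respiratory chain genes, and both were assigned the same peak. No partner was itself a member. All 32 members with such a partner had a shared region, with a median of 31.0, and of the 56 without one, 53 had a region, with a median of 24.1. Genes as a whole showed nearly the same values, 31.3 with a partner (97.9% open) and 23.1 without (67.3% open). Within either class the members were therefore close in level to all genes, and among genes without a partner more of the members were open (94.6%).

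RefSeq promoters of 300 bases, 250 before and 50 after the start, were matched for 67 of the 88 members and 13080 of 19476 genes. *Cox6a2*, *Cox4i1*, *Cox4i2* and *Uqcrq* were among those without an entry. A promoter was called CpG-rich at a ratio of observed to expected CpG of at least 0.6 and a GC content of at least 55%. This held for 42 members (62.7%), for 48.3% of all genes, and for 62.7% of all genes with a shared region. The median GC content of members was 58.3%. Among these 67 members, *Cox8b* had the fewest CpG dinucleotides with 2 in 300 bases and *Cox7a1* the next fewest with 7, against 32 in *Cox6a1*, 20 in *Cox7a2* and 19 in *Cox8a*. *Ndufc2*, a complex I gene, followed *Cox7a1* with 8 and had a mean fold enrichment of 23.3. *Cox6b2*, with 10, was also low in CpG but not in accessibility. Across the 66 members with both a promoter and a shared region, Spearman's rho between CpG count and mean fold enrichment was 0.212, a description across genes that share the same libraries.

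**Figure D5:**
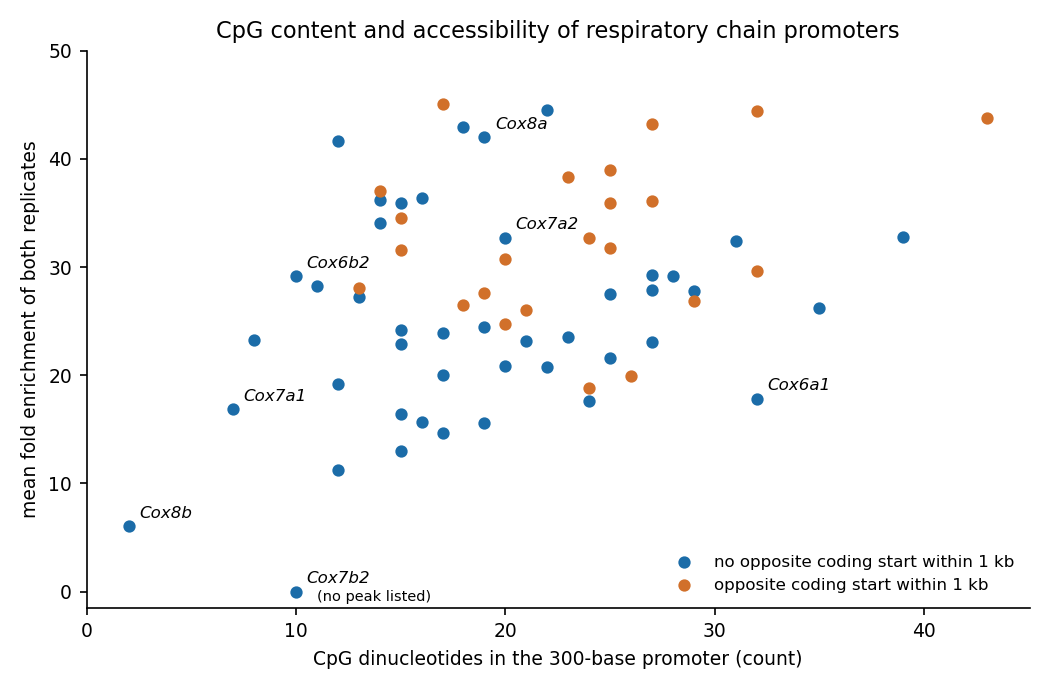
Mean fold enrichment of both replicates (vertical axis, no unit) against the number of CpG dinucleotides in the 300-base promoter (horizontal axis) for the 67 members with a RefSeq promoter, orange where a coding start on the opposite strand lies within 1 kb. *Cox8b* (2 CpG) and *Cox7a1* (7 CpG) are at the left edge, and *Cox7b2*, drawn at 0, had no listed peak.

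Motifs of factors known to act on respiratory chain genes were searched on both strands by exact letters. The NRF1 motif GCGCATGC was in 10 of 67 member promoters (14.9%) and in 4.18% of all promoters. It was present in *Cox6a1*, *Sdhb* and *Uqcrc1*, among others. The ETS motif CCGGAAG was in 17 (25.4%, all promoters 13.5%), including *Cox8a*, *Atp5e*, *Sdhb* and *Sdhd*. The YY1 motif AAGATGGC was in 10 (14.9%, all promoters 3.43%), including *Ndufs4*, *Ndufs6* and *Ndufs7*. At least 1 of these 3 motifs was found in 31 members (46.3%) and in 19.5% of all promoters. The oestrogen-related receptor motif TCAAGGTCA was in *Atp5g3* and *Sdhd* alone (2.99%, all promoters 0.390%). Other motifs were below the share of all promoters: the SP motif GGGCGGG in 37.3% against 38.8%, the E-box CAGCTG in 8.96% against 15.6%, the GATA motif AGATAA in 7.46% against 8.49% and the TATA motif TATAAA in 10.4% against 11.4%. The MEF2 and CArG motifs of muscle genes were in 0 of 67 member promoters, which do not include that of *Cox6a2*. These motifs were in 2.27% and 1.26% of all promoters and in 1.63% and 1.17% of those with a shared region. At such low shares, few matches would be found in any 67 promoters. Since nearly all members were open, the shares among all promoters with a shared region were also taken. They were 5.25% for NRF1, 17.0% for ETS, 4.17% for YY1 and 0.294% for the oestrogen-related receptor motif, all below the shares of the members. The SP motif (48.7%) and the E-box (15.1%) were again more frequent than in the members, whereas GATA (6.02%) and TATA (6.96%) were less frequent, so that the order for these 2 motifs turned with the set of promoters compared. Members with the ETS motif had a median fold enrichment of 24.4 and those without it 27.8, and for NRF1 the medians were 25.2 and 27.9, so that promoters with these letters were not the more accessible ones. A match describes the letters in this window only.

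Genes that serve the same pathway under other symbols were counted for comparison, to be read against the 70.9% of all genes that had a shared region and their median of 24.8. All 39 analysed assembly genes of the respiratory chain outside the symbol rule had a shared region, with a median of 30.6, from *Coa3*, a complex IV assembly factor (16.0 and 17.6), to *Tmem126b*, a complex I assembly factor (51.6 and 49.5). Of 5 genes for cytochromes and adenine nucleotide carriers, *Cycs* (somatic cytochrome c, 39.1 and 43.7), *Slc25a4* (the carrier of heart and muscle, 31.8 and 25.9) and *Cyc1* (cytochrome c1 of complex III, 22.5 and 23.9) had one, and *Cyct* and *Slc25a31*, the testis forms, had none. All 15 regulators had one, with a median of 25.8, from *Esrrb* (10.9 and 10.6) to *Esrra* (51.6 and 47.3), genes of oestrogen-related receptors. *Ppargc1a*, the coactivator of mitochondrial biogenesis, stood at 22.3 and 19.1. Of 10 muscle energy genes 9 had one, with a median of 14.2. *Ckmt2*, the mitochondrial creatine kinase of sarcomeric muscle, was the lowest at 9.78 and 9.05, and *Pdk4*, a kinase that restrains pyruvate oxidation, the highest at 34.0 and 30.9, while *Mb*, myoglobin, had none.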

How the data were processed

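The 2 replicates are the 2 libraries of wildtype E11.5 hearts that the labels name. Per the study's methods, the authors trimmed single-end reads (Trim Galore 0.6.6 with Cutadapt), aligned them to mm10 (Bowtie2 2.4.2), removed duplicates and low-quality alignments (SAMtools 1.12) and called peaks with MACS2 on each replicate separately, without a local background. The deposited peak lists give fold enrichment (a ratio), −log10 p-value, −log10 q-value, a display score and the summit. The largest p-value in the lists was 0.000476 in replicate 1 and 0.00104 in replicate 2, below the limit that the methods state. The serial peak numbers leave out 1726 and 1803 numbers, in 683 and 670 intervals, and genes whose windows touch such an interval were not analysed here, which departs from the plan to use all genes. Chromosome X was outside the rule.

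Here, peaks of both replicates that overlapped by at least 1 bp within 1 kb of a start were counted with pandas 2.3.3, and the joins were tested on simulated data. The members, gene lists and rule for named genes were chosen with earlier results of these data known. Genes were named by that rule: isoform families, members without a shared region, the 5 highest and 5 lowest, the highest and lowest of each complex, the 3 with the replicate ratios furthest from 1 and those with the most regions. Subunits given for their role, pathway genes and *Atp5g2* were added after their values were seen, and 1 member that the rule names is not reported here. No test was made, because there is 1 group and genes are not replicates.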

Additional observations from a re-analysis of the deposited data

Results flagged for a closer look

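Peaks outside the autosomes were not part of the comparisons and are given as values. The X-linked genes *Cox7b*, *Ndufa1* and *Ndufb11* fit the symbol rule apart from their chromosome, and each had a promoter peak in both replicates. Their mean fold enrichments were 16.2 for *Cox7b* (15.5 and 16.8), 15.3 for *Ndufa1* (13.9 and 16.8) and 24.5 for *Ndufb11* (25.5 and 23.4). All 3 means lay below the median of 24.8 of autosomal genes with a shared region, although *Ndufb11* in replicate 1 exceeded that replicate's median of 24.7. The sex of the hearts is not given, so that the number of X chromosomes per cell is unknown here.

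Mitochondrial DNA, which encodes the other subunits of the same complexes, was listed as 2 peaks in each replicate that held the highest fold enrichment of its list, 106 in replicate 1 and 96.8 in replicate 2. The peaks spanned positions 1 to 6582 and 10853 to 16299 in replicate 1 and nearly the same positions in replicate 2. They held 5 of the 13 mitochondrial protein genes whole and touched 7 in all. The other 6 are not described here, because the lists carry no value for them.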

How the results depend on the processing

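No paired analysis was possible because both replicates belong to 1 group. Of 94 values recomputed under other settings, 86 moved by less than the spread between replicates (for counts, by no more than 1.5 times, which the muscle isoforms reached with 2 of 3 at a q-value of at most 1e-10, where 65.8% of all genes had a region) and 8 by more, and none changed direction. The median of all genes with a shared region was 26.0 with peaks at a q-value of at most 1e-10 (members 27.6), 25.0 with a reciprocal overlap of 50%, 24.9 and 24.5 with windows of 500 bp and 2 kb, and 24.5 with the 5′-most start alone, against 24.8. With 1 replicate left out, this median ran from 24.4 to 24.6 and that of the members from 26.9 to 27.7. The difference between *Cox8a* and *Cox8b* became 38.7 at that q-value, where the *Cox8b* peak of replicate 2 is lost and entered as 0. With 1 replicate left out, the differences of the pairs ran from 9.78 to 13.1 (*Cox6a1* and *Cox6a2*), 15.1 to 16.6 (*Cox7a2* and *Cox7a1*) and 34.2 to 37.8 (*Cox8a* and *Cox8b*).

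The shared region of *Cox8b* and that of *Cox4i2* were lost at a q-value of at most 1e-10, that of *Ndufa4l2* with a 500 bp window or with summits required inside the window, and that of *Cox7a2l* with the 5′-most start alone. The other settings lost and gained no member. With genes in the skipped intervals included, a setting added after the data were seen, 86 of 91 members had a region, against 67.7% of all genes. The lists hold no reads below the calling limit, so that a promoter without a peak may still be open at a level not detectable here.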
